A study of Mus musculus with 8 samples.

Results

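Tumour necrosis factor (TNF) superfamily genes were followed through 8 RNA sequencing libraries of RAW macrophages, a mouse macrophage line derived from a tumour induced by a leukaemia virus. The members were 9 genes taken by their symbols from the 24394 named genes of the deposited table: the ligand genes Tnf, Tnfsf9, Tnfsf10 and Tnfsf13b, the receptor genes Tnfrsf1a, Tnfrsf1b and Fas, and the adaptor genes Traf1 and Traf2. All 9 were found, and all 9 passed the filter on low counts that left 11630 genes for testing. The 4 groups had 2 libraries each. The statin LPS group had received a statin at 7 µM with lipoprotein-deficient serum and then lipopolysaccharide (LPS), a cell wall component of bacteria, at 100 ng/ml for 3 h in medium with albumin at 1 mg/ml. The ctl LPS group had received the LPS without statin, the statin group the statin with its serum and no LPS, and the Ctrl group neither. The study's figure legends name the statin of these RAW cells as lovastatin, given for 2 days. According to the study's methods mevalonate was added with the statin. The serum of the cells without statin was not given in the sources used here, so a statin effect here means that of the statin with its serum and supplement. Nothing in the labels says that the libraries of a group came from separate cultures, and p-values then measure only the spread between these libraries.

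Ligands of this superfamily are made as trimers on the cell surface or shed from it, and each engages one or more receptors on the same or a neighbouring cell. Receptors with a death domain, among them TNFR1 and Fas, can recruit FADD and caspase-8 and lead to cell death, while TNFR2 and other receptors recruit TRAF proteins and cellular inhibitors of apoptosis to activate NF-kB and MAP kinases. In macrophages sensing LPS, Tnf is one of the first genes to be transcribed, and the TNF released acts back on the same cells.

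Reads assigned to genes numbered 37.0 to 76.4 M (1e6) a library, and 1 read was worth 0.781 to 1.33 normalized counts, the unit of the values below. A normalized count is a gene's read count divided by the size factor of its library. Summed over genes, normalized counts came to 50.3 and 50.7 M in statin LPS, 64.0 and 64.2 M in ctl LPS, 39.3 and 39.4 M in statin and 36.3 M in each Ctrl library. All 8 macrophage markers examined were present in every group. The complement genes of tissue macrophages (C1qa, C1qb and C1qc) together had 273 and 365 normalized counts in the statin LPS libraries, 1634 and 1.25 in the ctl LPS libraries and at most 5.88 in a library without LPS. The sum of 6 fibroblast markers was 315 and 402 in statin LPS, 805 and 1.25 in ctl LPS and at most 1.56 in a library without LPS. The 4 dendritic cell markers summed to 458 and 421 in statin LPS, 366 and 372 in ctl LPS, 152 and 165 in statin and 91.3 and 109 in Ctrl. Nearly all of this was 1 gene, Zbtb46, with 446 and 410 in statin LPS, 336 and 341 in ctl LPS, 151 and 165 in statin and 87.4 and 107 in Ctrl. Flt3, Ccr7 and Xcr1 had at most 1.33, 12.6 and 22.5 in a library. Markers of T, B and NK cells were at or near 0, with at most 9.57 for a list in a library, neutrophil markers reached at most 25.8, in a Ctrl library, and endothelial and epithelial markers reached 37.0 in ctl LPS and 5.47 elsewhere. Rn45s, a ribosomal RNA precursor, made up 1.73% of the reads of statin replicate 2 and 0.0707 to 0.153% in the other 7 libraries. For each of the 9 members the 2 ctl LPS libraries, which differ most in C1q and fibroblast transcripts, lay close together. Both statin LPS libraries held these transcripts, and a library without LPS had at most 5.88 and 1.56 for these lists. Closeness within ctl LPS does not bear on comparisons that take in those groups. The part of the marker and Rn45s signals in the results was not tested. In bulk RNA, fewer cells expressing a gene and less RNA per cell cannot be told apart.

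The sequence before the start of 4 members is shown to set side by side 2 genes whose level under LPS did not pass the test for an effect of statin (Tnf and Tnfrsf1b) and the 2 genes with the largest fall (Tnfsf10 and Tnfsf13b). They come from RefSeq on GRCm38.p6 and end at the annotated start of the gene, except that the last bases of a match are kept in Tnfsf10. Capitals mark a match, on either strand, to a TATA box (TATAAA), the core bound by interferon regulatory factors (IRF core, AANNGAAA) or the interferon-stimulated response element (ISRE, GAAANNGAAA, which always holds an IRF core).
Tnf, chr17:35202008-35202257, minus strand: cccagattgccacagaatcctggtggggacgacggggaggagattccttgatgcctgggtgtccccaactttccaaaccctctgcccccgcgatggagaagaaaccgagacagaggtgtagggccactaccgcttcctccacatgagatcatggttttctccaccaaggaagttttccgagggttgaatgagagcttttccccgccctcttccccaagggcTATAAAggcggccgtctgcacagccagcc
Tnfrsf1b, chr4:145246871-145247120, minus strand: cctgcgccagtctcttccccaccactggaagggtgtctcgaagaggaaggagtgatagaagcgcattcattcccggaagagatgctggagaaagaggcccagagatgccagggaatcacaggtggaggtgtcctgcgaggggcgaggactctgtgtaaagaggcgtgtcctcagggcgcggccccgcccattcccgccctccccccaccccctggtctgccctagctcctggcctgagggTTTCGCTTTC
Tnfsf10, chr3:27316827-27317031, plus strand: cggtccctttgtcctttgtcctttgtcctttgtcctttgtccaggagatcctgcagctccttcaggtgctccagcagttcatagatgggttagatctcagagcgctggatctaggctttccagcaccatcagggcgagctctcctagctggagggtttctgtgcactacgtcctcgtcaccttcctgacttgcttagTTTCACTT
Tnfsf13b, chr8:10006217-10006466, plus strand: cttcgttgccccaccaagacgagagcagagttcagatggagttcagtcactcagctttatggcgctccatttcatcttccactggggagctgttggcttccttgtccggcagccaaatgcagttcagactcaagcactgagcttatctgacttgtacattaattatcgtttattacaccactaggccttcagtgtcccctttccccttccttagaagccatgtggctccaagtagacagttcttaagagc
The Tnf window holds a TATA box that ends 23 bases before the start. The Tnfsf10 window shown holds an IRF core on the other strand, its RefSeq window holds another closer to the RefSeq start, and the Tnfrsf1b window ends in an ISRE on the other strand. No match stands in this window of Tnfsf13b, and a second RefSeq start of this gene, further in, has an ISRE 6 bases before it and an AP-1 motif (TGANTCA). Of the other members with a RefSeq window of 250 bases, Fas has an AP-1 motif and an IRF core, and Tnfrsf1a, Traf1 and Traf2 have no match to these motifs. The Tnfrsf1a window (125349473 to 125349722) lies wholly past the annotated start of the gene (125349362, plus strand). The bases before that start were therefore not searched. No window here matched the kappaB consensus. Of all 32851 windows of this length, 12.4% hold the TATA box, 21.3% the IRF core, 2.98% the ISRE, 6.75% the AP-1 motif and 3.90% the kappaB consensus. The motifs were chosen with the sequences in view, and a match is a description of letters, not of a bound site.

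All members were higher after LPS, and most were lower when LPS followed statin. Against Ctrl, all 9 members were higher in ctl LPS (39.9% of all tested genes were called higher and 37.7% lower). Against ctl LPS, 7 members were lower in statin LPS and 0 higher, while Tnf and Tnfrsf1b were not called (32.9% of tested genes were lower and 31.4% higher). Without LPS the direction was mostly the other one, since 5 members were higher in statin than in Ctrl and 2 lower (30.4% and 25.7% of tested genes). Compared with statin alone, 8 members were higher in statin LPS and 0 lower (29.2% and 29.1%). The interaction, the statin effect under LPS minus that at rest, was negative and called for all 9 (25.6% of tested genes had a positive and 30.1% a negative call). A gene is called at a Benjamini-Hochberg adjusted p under 0.05 in limma, and fold changes below are log2 of the normalized count plus 1 with the standard error (SE) of that fit. The median log2 change of the 9 members was 4.31 for ctl LPS against Ctrl, -1.12 for statin LPS against ctl LPS, 0.41 for statin against Ctrl, 2.60 for statin LPS against statin and -1.72 for the interaction, where the median of all tested genes lay between -0.03 and 0.02. The members were chosen with earlier results of these data known.

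**Figure D1:**
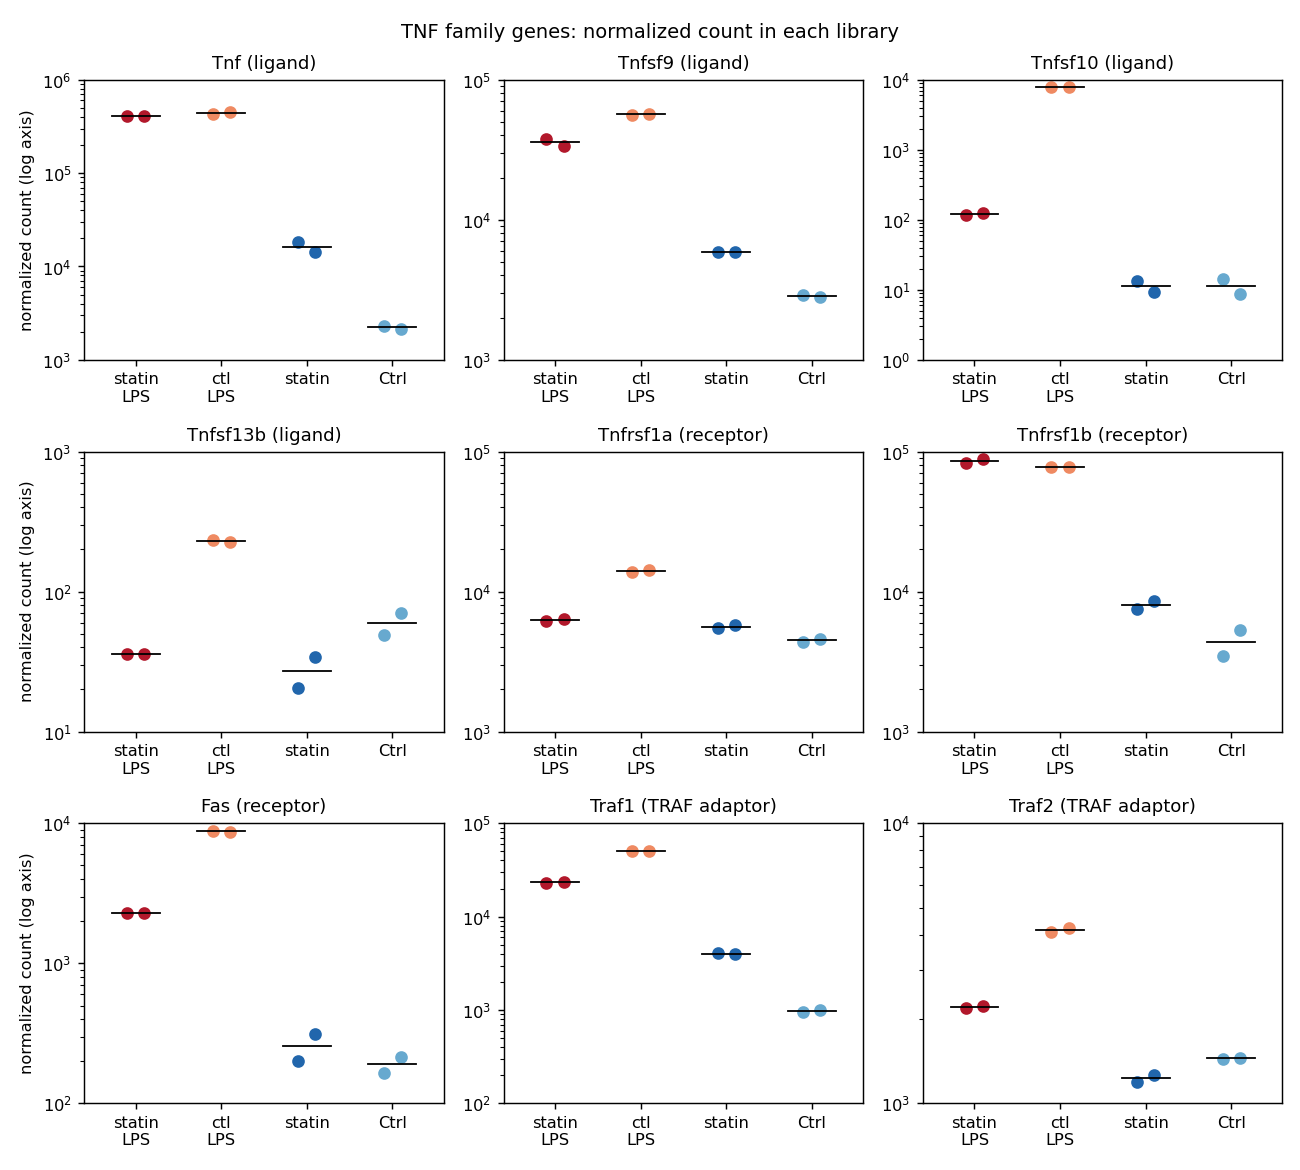
Normalized count (log axis) of each member in each library, with 1 point per library (n = 2 per group) and a line at the group mean; groups are statin LPS, ctl LPS, statin and Ctrl. The 2 points of ctl LPS are close in every panel, the Tnf panel shows statin LPS and ctl LPS side by side near the top, and in the Tnfsf10 panel statin LPS (117 and 126) lies far under ctl LPS (7863 and 7901).

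Tnf encodes the founding cytokine of the family and lies on chromosome 17 from 35199381 to 35202007 (GRCm38, minus strand, 4 merged exons). Its normalized count was 406149 and 406577 in statin LPS, against 429352 and 449283 in ctl LPS. At rest it was 18289.5 and 14292 in statin, against 2311 and 2147 in Ctrl. Groups did not overlap in either pair, but the gap is wide only at rest. Statin alone raised Tnf by 2.86 ± 0.12 (log2, SE, adjusted p = 2.96e-06), a 7.31-fold ratio of means. Under LPS the difference was -0.11 ± 0.12 (adjusted p = 0.428), with statin LPS at 92.5% of the ctl LPS mean. With only the 4 LPS libraries, whose pairs lie closer together, the same difference had an adjusted p of 0.0180, and with equal library totals and with quantile normalization it was 0.23 and 0.25 (adjusted p = 0.112 and 0.101). LPS raised Tnf by 7.62 ± 0.12 over Ctrl (adjusted p = 5.73e-10) and by 4.65 ± 0.12 over statin (adjusted p = 3.77e-08). Tnf reads made up 0.802 and 0.809% of all reads over genes in statin LPS, 0.670 to 0.704% in ctl LPS, 0.0363 to 0.0467% in statin and 0.00593 to 0.00637% in Ctrl.

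Tnfsf9 encodes the 4-1BB ligand, a costimulator of T cells, and lies on chromosome 17 from 57105325 to 57107757 (plus strand). It had 37967 and 33395 normalized counts in statin LPS, against 56447 and 57333 in ctl LPS. In resting cells it had 5854 and 5921 in statin, against 2909.7 and 2811 in Ctrl. The statin libraries are thus the lower ones under LPS and the higher ones at rest, with no overlap in either state. The fall under LPS was -0.68 ± 0.07 (adjusted p = 6.53e-05), and it was not called with quantile normalization (-0.10, adjusted p = 0.234, the highest over all alternatives). At rest Tnfsf9 rose by 1.04 ± 0.07 (adjusted p = 1.93e-05). LPS raised it by 4.31 ± 0.07 over Ctrl and by 2.60 ± 0.07 over statin. Of its exonic length, 14.9% overlaps Gm11110 on the other strand, a gene counted at 195 to 446 in all 8 libraries, and reads there are uncertain because the sources do not say whether counting used strand.

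Tnfsf10 encodes TRAIL, a ligand that can trigger death through receptors with a death domain, and lies on chromosome 3 from 27317028 to 27342427 (plus strand). Its normalized count was 117 and 126 in statin LPS, against 7863 and 7901 in ctl LPS. Without LPS it stood at 13.4 and 9.40 in statin, against 14.1 and 8.82 in Ctrl. The ctl LPS libraries stand alone at the top, and the resting groups overlap. The difference of -6.01 ± 0.24 between statin LPS and ctl LPS (adjusted p = 3.14e-07) leaves the gene at 1.55% of its ctl LPS mean. No call was made at rest (0.01 ± 0.24, adjusted p = 0.975, and 0.234 to 1 over the alternatives, the sign turning under 7 of them). LPS raised Tnfsf10 by 9.34 ± 0.24 over Ctrl (adjusted p = 5.81e-09) and by 3.33 ± 0.24 over statin (adjusted p = 1.07e-05), ratios of means of 689 and 10.7. The interaction of -6.02 ± 0.34 (adjusted p = 3.27e-06) was the most negative of the 9.

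Tnfsf13b encodes BAFF, a survival factor of B cells made by myeloid cells, and lies on chromosome 8 from 10006467 to 10039072 (plus strand). Per kb of exon it was the least abundant member with LPS, and its normalized count was 35.7 and 35.9 in statin LPS, against 234 and 225 in ctl LPS. At rest it had 20.6 and 33.8 normalized counts in statin, against 49.2 and 70.6 in Ctrl. Statin libraries were below their counterparts in both states, and statin LPS libraries lay under both Ctrl libraries. Under LPS the fall was -2.65 ± 0.28 (adjusted p = 6.05e-05), and at rest it was -1.13 ± 0.28 (adjusted p = 0.00868). The fall at rest was not called without statin replicate 1 (-0.78, adjusted p = 0.0547), nor with only the 4 resting libraries, where its size was the same (-1.13, adjusted p = 0.0530). LPS raised Tnfsf13b by 1.95 ± 0.28 over Ctrl (adjusted p = 0.000216), while over statin the difference was 0.42 ± 0.28 (adjusted p = 0.221). The interaction was -1.52 ± 0.39 (adjusted p = 0.0106).

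Among receptors, Tnfrsf1a encodes TNFR1, the widely expressed receptor with a death domain, and lies on chromosome 6 from 125349362 to 125362484 (plus strand). It had 6207 and 6327 normalized counts in statin LPS, against 13811 and 14313 in ctl LPS. At rest the values were 5491 and 5747 in statin, against 4346 and 4606 in Ctrl. No groups overlap, the ctl LPS libraries are far above the rest, and the other groups follow in the order statin LPS, statin and Ctrl. Under LPS Tnfrsf1a fell by 1.17 on the log2 scale (SE 0.06, adjusted p = 9.15e-07), and at rest it rose by 0.33 ± 0.06 (adjusted p = 0.00181). LPS raised it by 1.65 ± 0.06 over Ctrl (adjusted p = 3.20e-08). Over statin the difference was 0.16 ± 0.06 (adjusted p = 0.0460), and it missed the threshold without statin replicate 1 (0.13, adjusted p = 0.144), statin LPS replicate 1 (0.17, 0.134) or 2 (0.14) or either ctl LPS library (0.0871 and 0.0877). It also missed it with TMM scaling (0.15, adjusted p = 0.0569), no filter (0.0601), edgeR (0.0630), DESeq2 (0.0599) and with both ctl LPS replicate 1 and statin replicate 2 left out (0.19, 0.108), and the sign turned with equal totals (-0.20, adjusted p = 0.0142) and quantile normalization (-0.08, adjusted p = 0.384).

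Tnfrsf1b encodes TNFR2, a receptor without a death domain that recruits TRAF2 and is found mainly on immune and endothelial cells, and lies on chromosome 4 from 145213463 to 145246870 (minus strand). Its normalized count was 83383 and 87927 in statin LPS, against 77196 and 78115 in ctl LPS. In resting cells it was 7461 and 8601 in statin, against 3455 and 5283 in Ctrl. Here the statin libraries were above their counterparts in both states. At rest Tnfrsf1b rose by 0.91 ± 0.17 (adjusted p = 0.00241), and under LPS the difference was 0.14 ± 0.17 (adjusted p = 0.495). The difference under LPS was called with only the 4 LPS libraries (0.14, adjusted p = 0.00165), with equal totals (0.48, adjusted p = 0.0322) and with quantile normalization (0.56, adjusted p = 0.0447). LPS raised the gene by 4.18 ± 0.17 over Ctrl (adjusted p = 7.53e-08) and by 3.42 ± 0.17 over statin (adjusted p = 1.33e-06). The interaction of -0.77 ± 0.24 (adjusted p = 0.0260) was lost without statin replicate 2 (-0.66, adjusted p = 0.0938), statin LPS replicate 1 (-0.73, 0.0843) or 2 (-0.80, 0.0632), and ctl LPS replicate 1 (-0.77, 0.0624) or 2 (-0.76, 0.0671). It was smaller and not called with equal totals (-0.31, adjusted p = 0.288) and with quantile normalization (-0.35, adjusted p = 0.341), and not called without ctl LPS replicate 1 and statin replicate 2 together (-0.67, adjusted p = 0.177).

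Fas encodes the receptor of Fas ligand, which recruits FADD and caspase-8, and lies on chromosome 19 from 34290666 to 34327772 (plus strand). It had 2283 and 2307 normalized counts in statin LPS, against 8874 and 8677 in ctl LPS. At rest it had 201 and 312 in statin, against 165 and 216 in Ctrl. The LPS groups are well apart, and the resting groups overlap. Under LPS Fas fell by 1.94 on the log2 scale (SE 0.19, adjusted p = 4.73e-05), to 26.2% of the ctl LPS mean. The difference at rest was 0.41 ± 0.19 (adjusted p = 0.104), and it was called without statin replicate 1 (0.72, adjusted p = 0.00961), without Ctrl replicate 2 (0.60, adjusted p = 0.0394) and in DESeq2 (0.42, adjusted p = 0.0358). Without statin replicate 2 it was 0.0957 and without Ctrl replicate 1 it was 0.22, and over all alternatives the adjusted p reached 0.690. LPS raised Fas by 5.53 ± 0.19 over Ctrl and by 3.19 ± 0.19 over statin (adjusted p = 3.06e-08 and 4.22e-06).

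Traf1 encodes an adaptor induced by NF-kB that binds TRAF2 and cellular inhibitors of apoptosis, and lies on chromosome 2 from 34941750 to 34961772 (minus strand). Its normalized count was 22964.5 and 23642 in statin LPS, against 50552 and 50934 in ctl LPS. At rest it was 4065 and 3994 in statin, against 962 and 991 in Ctrl. Pairs were tight in all 4 groups and no groups overlap. Under LPS Traf1 fell by 1.12 on the log2 scale (SE 0.05, adjusted p = 7.03e-07), and at rest it rose by 2.04 ± 0.05 (adjusted p = 3.72e-07), a 4.13-fold ratio of means. LPS raised it by 5.70 ± 0.05 over Ctrl and by 2.53 ± 0.05 over statin (adjusted p = 5.47e-11 and 1.72e-08). The interaction was -3.17 ± 0.08 (adjusted p = 3.71e-07).

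Traf2 encodes the adaptor that links TNFR1 and TNFR2 to downstream kinases, and lies on chromosome 2 from 25517982 to 25546940 (minus strand). It had 2184 and 2227 normalized counts in statin LPS, against 4099 and 4244 in ctl LPS. Resting libraries had 1195 and 1261 in statin, against 1446 and 1451 in Ctrl. Statin libraries were the lower ones in both states, as for Tnfsf13b. Under LPS the fall was -0.92 ± 0.06 (adjusted p = 3.76e-06), and at rest the difference was -0.24 ± 0.06 (adjusted p = 0.00945), which with only the 4 resting libraries had the same size and was not called (adjusted p = 0.0861, the highest over all alternatives). LPS raised Traf2 by 1.53 ± 0.06 over Ctrl and by 0.84 ± 0.06 over statin (adjusted p = 5.64e-08 and 9.54e-06).

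**Figure D2:**
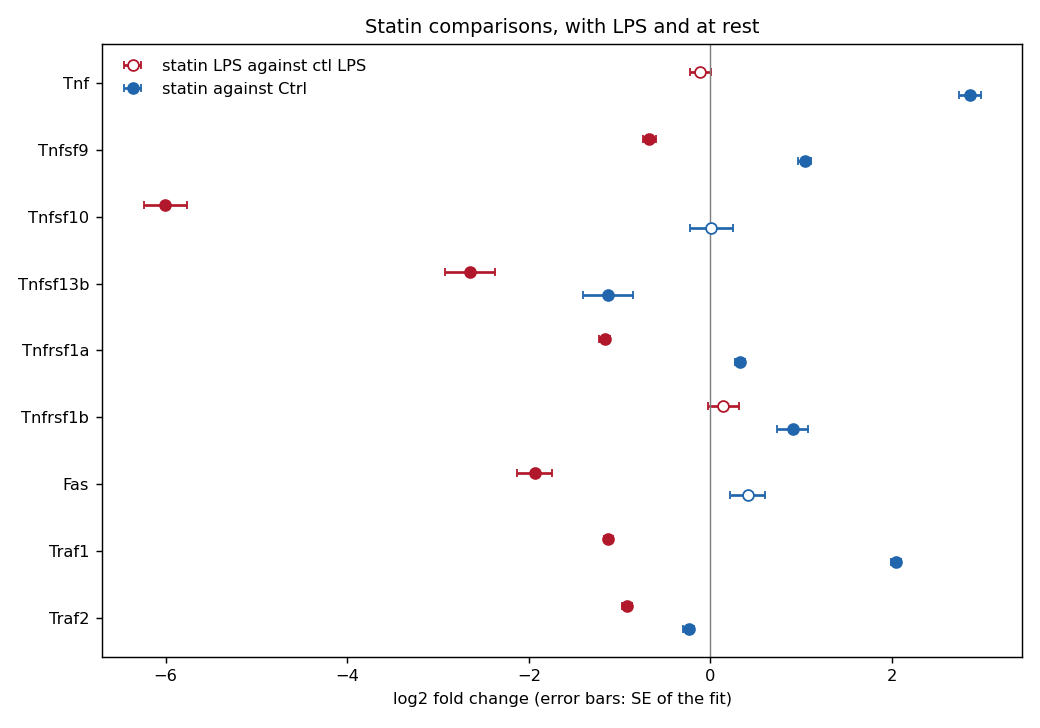
Log2 fold change (x axis, bars are the SE of the limma fit) of each member for statin LPS against ctl LPS (red) and statin against Ctrl (blue), with filled points for an adjusted p under 0.05. Tnfsf10 lies at -6.01 under LPS and 0.01 at rest, Tnf at -0.11 and 2.86, and for each member the red point lies left of the blue one.

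The interaction sets these effects side by side for each member. Besides the values already given, it was -2.97 ± 0.17 for Tnf (adjusted p = 3.22e-06), -1.72 ± 0.10 for Tnfsf9 (4.06e-06), -1.49 ± 0.08 for Tnfrsf1a (3.09e-06), -2.35 ± 0.27 for Fas (adjusted p = 0.000156) and -0.68 ± 0.08 for Traf2 (adjusted p = 0.000214). For Tnf and Tnfrsf1b the statin effect was called at rest and not under LPS. For Tnfsf9, Tnfrsf1a and Traf1 it was called in both states with opposite signs. Tnfsf10 and Fas were called under LPS and not at rest, and Tnfsf13b and Traf2 fell in both.

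**Figure D3:**
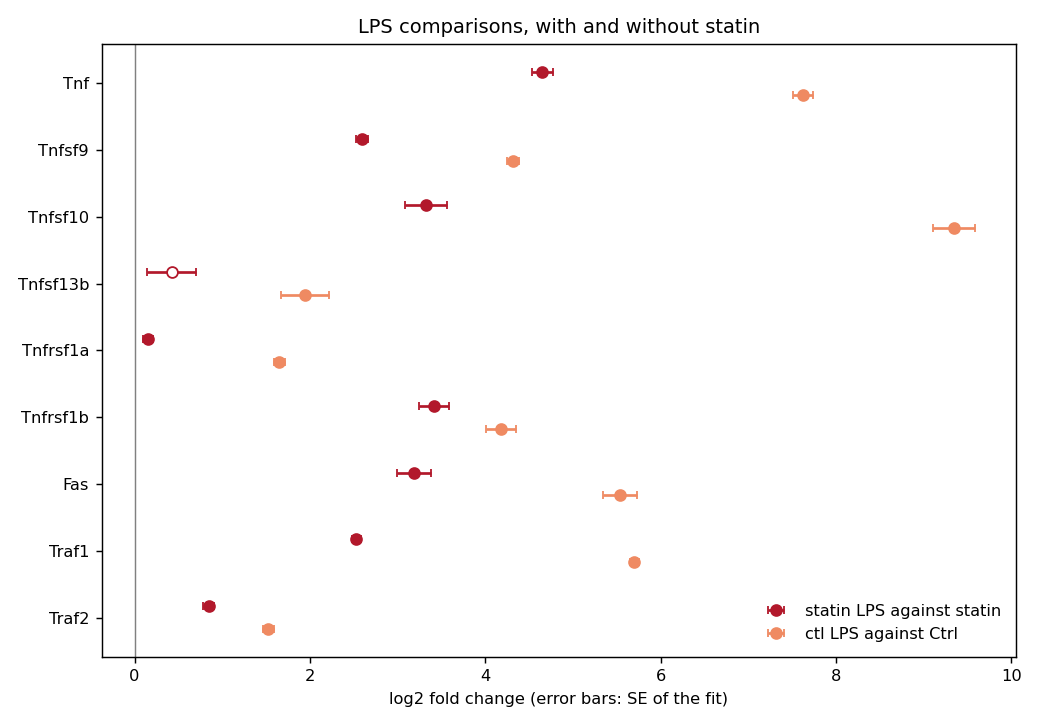
Log2 fold change (x axis, bars are the SE of the limma fit) of each member for statin LPS against statin (red) and ctl LPS against Ctrl (orange), with filled points for an adjusted p under 0.05. The red point lies left of the orange one for each member, from 0.16 and 1.65 for Tnfrsf1a to 3.33 and 9.34 for Tnfsf10.

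Levels of different genes were compared per kb of merged exons, as mean normalized count per kb ± SD over 2 libraries. In statin LPS the order was Tnf (247933 ± 185), Tnfsf9 (27660 ± 2506), Tnfrsf1b (22434.5 ± 842), Traf1 (2642 ± 54.3), Tnfrsf1a (2419 ± 32.8), Fas (1113 ± 8.32), Traf2 (432 ± 6.07), Tnfsf10 (23.1 ± 1.17) and Tnfsf13b (5.21 ± 0.0198). In ctl LPS the first 6 places were held by the same genes in the same order, with Tnf at 268040 ± 8599, and Tnfsf10 (1497 ± 5.14) stood above Traf2 (818 ± 20.1) and Tnfsf13b (33.5 ± 0.929). In statin the order was Tnf (9940 ± 1724), Tnfsf9 (4564 ± 36.7), Tnfrsf1a (2169 ± 69.8), Tnfrsf1b (2103 ± 211), Traf1 (457 ± 5.74), Traf2 (241 ± 9.14), Fas (125 ± 37.9), Tnfsf13b (3.96 ± 1.36) and Tnfsf10 (2.17 ± 0.541). In Ctrl Tnfsf9 led (2217 ± 54.2), then Tnfrsf1a (1728 ± 71.0), Tnf (1360.1 ± 70.6), Tnfrsf1b (1144 ± 339), Traf2 (284 ± 0.643), Traf1 (111 ± 2.33), Fas (92.2 ± 17.5), Tnfsf13b (8.72 ± 2.20) and Tnfsf10 (2.17 ± 0.703). Neighbours within their spread were Tnfrsf1a and Tnfrsf1b and also Tnfsf13b and Tnfsf10 in statin, Tnf and Tnfrsf1b in Ctrl, and Traf1 and Fas in Ctrl. Merged exons hold those of rare transcripts, so these levels are approximate.

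Ligands were also set beside the receptors known to bind them. Tnfrsf9, the receptor of the 4-1BB ligand, had 134 and 47.8 normalized counts in statin LPS, against 94.9 and 110.2 in ctl LPS. At rest it had 34.0 and 158 in statin, against 1.56 and 1.96 in Ctrl (4 reads in all), and was called higher in statin (4.76 ± 0.69, adjusted p = 0.000644). Its statin libraries differ widely from each other. Tnfrsf10b, the mouse receptor of TRAIL, had 773 and 746 in statin LPS, against 742 and 729 in ctl LPS, a difference of 0.05 ± 0.14 (adjusted p = 0.779) where its ligand differed most. At rest it rose with statin by 0.89 ± 0.14 (adjusted p = 0.000812). The BAFF receptor genes Tnfrsf13b and Tnfrsf13c had at most 15 reads in a group and were not tested, and Tnfrsf17, which binds BAFF and APRIL, had 4.35 and 6.64 in statin LPS, against 90.7 and 78.9 in ctl LPS. Fasl, which encodes the ligand of Fas, had 1 read in statin LPS, 1 in ctl LPS and 0 in each resting group.

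Genes whose pattern over the 8 libraries lay closest to a member were found by the root mean square (RMS) difference of log2(normalized count + 1), each gene centred on its own mean. For Tnf these were Socs3 (RMS 0.354), a brake on cytokine signalling, the chemokine receptor-like gene Ccrl2 (0.399) and the cytokine gene Clcf1 (0.402). For Tnfsf9 they were the NF-kB subunit gene Rel (0.179), Ehd1 (0.197) and Bcl2a1d (0.211), an inhibitor of apoptosis. For Tnfsf10 they were Trim30d (0.286), Apol9a (0.387) and Gm4951 (0.412). Of these, Trim30d had 191 and 181 normalized counts in statin LPS, against 8519 and 8403 in ctl LPS. For Tnfsf13b they were H2-T10 (0.175), the actin gene Actb (0.271) and the complement gene C1ra (0.275). Tnfrsf1a was closest to Plekha2 (0.0616), Hipk3 (0.0687) and Herpud2 (0.0723), and Tnfrsf1b to Micall2 (0.279), Stat5a (0.304) and Nfkbia (0.309), which encodes an inhibitor of NF-kB. The nearest to Fas were the kinase gene Jak2 (0.198), Gcnt2 (0.213) and Slfn5 (0.222), to Traf1 the costimulator gene Cd80 (0.260), F11r (0.318) and the kinase gene Pim1 (0.337), and to Traf2 Zmynd15 (0.0646), Wars (0.0785) and Lca5 (0.0807). Bcl2a1d, Trim30d, Apol9a and H2-T10 have near-identical relatives, among which the counting could split reads. Gcnt2 had at most 0.940 and Gm4951 at most 6.25 normalized counts in a library without LPS, and Clcf1 at most 0.781 in Ctrl. The patterns of these genes there rest on few reads and on the added 1. The likeness is over 8 libraries of 4 groups and carries no test.

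A wider list of 68 genes of the family and its signalling (14 ligands, 25 receptors, 29 adaptors and effectors, the members left out) had 51 genes past the filter, 8, 14 and 29 of each kind. Of the 17 not tested, 6 ligands and 11 receptors, Cd40lg, Eda, Tnfrsf19, Cd27 and Ngfr had no read in any library. Under LPS, 25 of the 51 were lower with statin and 12 higher, with a median of -0.30 (32.9% of all tested genes were lower and 31.4% higher). In ctl LPS against Ctrl 33 were higher and 11 lower, with a median of 1.08 (39.9% and 37.7% of all). In statin LPS against statin 27 were higher and 7 lower, with a median of 0.31 (29.2% and 29.1% of all). At rest, 23 were higher with statin and 7 lower, with a median of 0.28 (30.4% and 25.7% of all). The interaction was positive for 8 and negative for 31, with a median of -0.67 (25.6% and 30.1% of all). These counts are descriptions and were not tested against the other genes.

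Among ligands of the wider list under LPS, 3 of 8 were lower with statin and 2 higher, shares near those of all tested genes (32.9% and 31.4%). Tnfsf15, which encodes TL1A, had 1755 and 1557 normalized counts in statin LPS, against 8695 and 8642 in ctl LPS (-2.39 ± 0.17, adjusted p = 6.27e-06). In resting libraries it stood at 26.0 and 17.9 in statin, against 10.9 and 10.8 in Ctrl, so LPS raised it by 9.51 ± 0.17 over Ctrl and by 6.20 ± 0.17 over statin. Tnfsf8, the CD30 ligand gene, had 11.3 and 3.98 in statin LPS, against 61.3 and 90.1 in ctl LPS (adjusted p = 0.00230), and Tnfsf18, the GITR ligand gene, had 5.22 and 7.97, against 46.2 and 50.1 (adjusted p = 0.000834). Tnfsf14, which encodes LIGHT, went the other way, at 53.1 and 42.5 in statin LPS, against 5.88 and 3.76 in ctl LPS (3.08 ± 0.72, adjusted p = 0.00557). Over statin it was called higher by 2.33 ± 0.72 (adjusted p = 0.0231), and this was not called without statin replicate 2 (1.58, adjusted p = 0.154) or either statin LPS library (2.18 and 2.49, 0.111 and 0.0772). Tnfsf8 and Tnfsf18 passed the filter on low counts only through ctl LPS, and Tnfsf14 only through statin LPS, the group where each was highest. Their calls in comparisons with that group, and the counts of ligands that hold them, are descriptions of genes kept for being high there. The lymphotoxin genes Lta and Ltb rose with LPS, by 5.18 ± 0.45 and 2.34 ± 0.18 over Ctrl and by 3.17 ± 0.45 and 1.32 ± 0.18 over statin, and differed under LPS with statin by -0.86 ± 0.45 and -0.34 ± 0.18 (adjusted p = 0.125 for both). Tnfsf8 also rose over Ctrl, where it had 0 and 0.980 (adjusted p = 4.75e-05), and Tnfsf12, which encodes TWEAK, fell to 85.7 and 88.9 in ctl LPS, against 144 and 269 in Ctrl (-1.16 ± 0.29, adjusted p = 0.00540). Exons of Tnfsf12 are shared over 48.3% with a readthrough gene, so its value is uncertain.

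Of receptors of the wider list, 6 of 14 were lower with statin under LPS and 4 higher, again beside 32.9% and 31.4% of all tested genes. Cd40, the receptor for T cell help, had 10306 and 11260.4 normalized counts in statin LPS, against 56444 and 58262 in ctl LPS (-2.41 ± 0.21, adjusted p = 1.98e-05). LPS raised it by 8.75 ± 0.21 over Ctrl and by 5.39 ± 0.21 over statin. Tnfrsf11a, which encodes RANK, the receptor that drives osteoclast formation, had 1975 and 1649.6 in statin LPS, against 9154 and 8947 in ctl LPS (-2.33 ± 0.12, adjusted p = 1.17e-06). Tnfrsf17 and Tnfrsf14, the gene of the receptor HVEM, differed by -3.74 ± 0.52 and -1.66 ± 0.21 (adjusted p = 0.000323 and 0.000195). Higher with statin under LPS were Tnfrsf22 (1.81 ± 0.11), Tnfrsf23 (1.11 ± 0.13) and Relt (1.79 ± 0.16), and LPS without statin lowered Tnfrsf22 and Relt against Ctrl (-1.62 ± 0.11 and -2.48 ± 0.16). At rest Tnfrsf23, Tnfrsf12a and Tnfrsf22 rose with statin by 1.84 ± 0.13, 1.78 ± 0.15 and 1.29 ± 0.11. Tnfrsf12a encodes Fn14, the receptor of TWEAK, and Tnfrsf22 and Tnfrsf23 encode decoy receptors of TRAIL in the mouse and are close relatives that can share reads. Tnfrsf17 fell at rest, at 8.06 and 11.3 in statin, against 23.4 and 75.5 in Ctrl (-2.04 ± 0.52, adjusted p = 0.0104), and this was not called without statin replicate 1 (-1.82, adjusted p = 0.0680) or without ctl LPS replicate 1 and statin replicate 2 together (-2.25, 0.0557). Over Ctrl, LPS also raised Tnfrsf9 (5.23 ± 0.69), Eda2r (4.79 ± 0.13) and Tnfrsf8 (2.83 ± 0.47), and over statin it raised Tnfrsf8 (3.05 ± 0.47), Eda2r (2.86 ± 0.13) and Tnfrsf10b (1.03 ± 0.14) and lowered Tnfrsf22 (-1.10 ± 0.11).

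Of adaptors and effectors, 16 of 29 were lower with statin under LPS and 6 higher, beside the same 32.9% and 31.4% of all tested genes. Mlkl, the pore-forming effector of necroptosis, had 770 and 782 normalized counts in statin LPS, against 5569 and 5365 in ctl LPS (-2.82 ± 0.10, adjusted p = 1.64e-07). Casp8, the initiator caspase of the death receptors, had 2679 and 2716 in statin LPS, against 9127 and 9059 in ctl LPS (-1.75 ± 0.06, adjusted p = 1.46e-07). Birc2, which encodes the inhibitor of apoptosis cIAP1, and Rnf31, the catalytic subunit of the linear ubiquitin ligase, differed by -1.72 ± 0.08 and -1.36 ± 0.07. Traf3 and Traf4 were higher with statin, Traf3 at 2199 and 2327 in statin LPS, against 885 and 865 in ctl LPS (1.37 ± 0.06, adjusted p = 6.61e-07), and Traf4 by 1.67 ± 0.17. Traf3 and Traf4 fell with LPS against Ctrl (-1.38 ± 0.06 and -1.21 ± 0.17), and so did the death domain adaptor gene Fadd (-2.14 ± 0.13). Over Ctrl, LPS raised Mlkl by 4.36 ± 0.10, Cflar, which encodes the caspase-8 inhibitor cFLIP, by 4.26 ± 0.11, Birc3, which encodes cIAP2, by 3.13 ± 0.09 and Rhbdf2, which encodes a partner of the TNF-shedding protease ADAM17, by 3.04 ± 0.08. Over statin, LPS raised Cflar by 1.48 ± 0.11, Mlkl by 1.26 ± 0.10 and Rhbdf2 by 1.17 ± 0.08. At rest Cflar, Rhbdf2 and Birc3 rose with statin by 1.66 ± 0.11, 1.23 ± 0.08 and 1.09 ± 0.09. Timp3, a metalloprotease inhibitor gene, had 46.1 and 59.8 in statin LPS, against 1.79 and 0 in statin (adjusted p = 0.0325), and 77.3 and 0 in ctl LPS. Its ctl LPS libraries part in the same way as the C1q and fibroblast markers, and its call over statin was lost without either statin library (adjusted p = 0.0702 and 0.160), without either statin LPS library (0.106 and 0.129) and in DESeq2 (0.167).

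**Figure D4:**
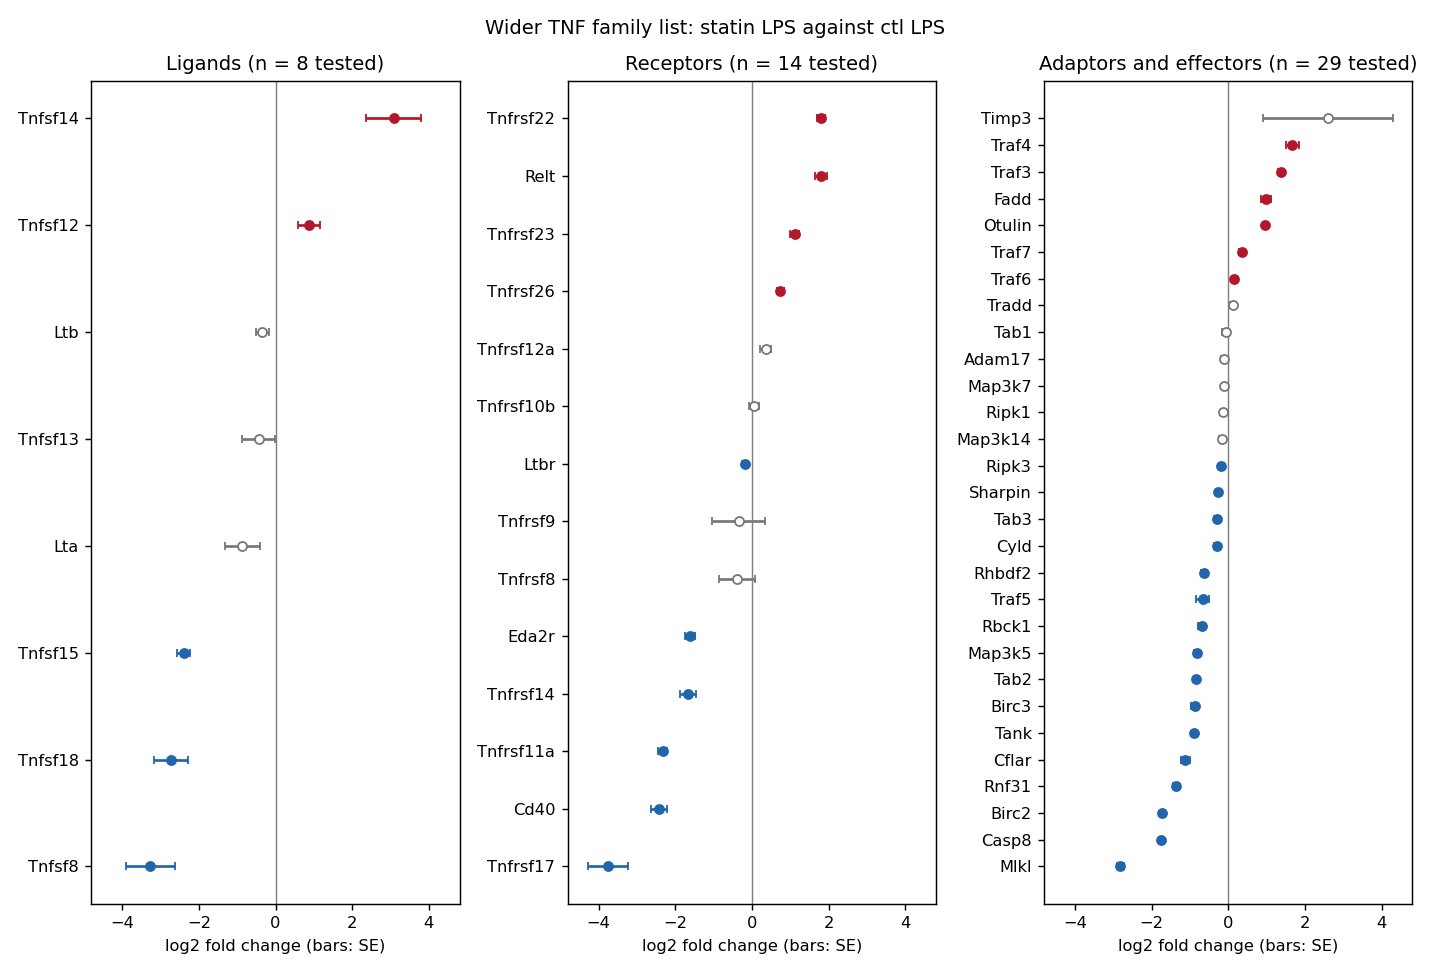
Log2 fold change (x axis, bars are the SE of the limma fit) of the 51 tested genes of the wider list for statin LPS against ctl LPS, in 3 panels by kind; filled red points are called higher, filled blue points called lower and open grey points not called. Called genes number 2 higher and 3 lower of 8 ligands, 4 and 6 of 14 receptors, and 6 and 16 of 29 adaptors and effectors.

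All groups entered 1 fit with a common variance per gene, although paired libraries differed by a robust SD (of log2 ratios over genes) of 0.0788 in statin LPS, 0.0656 in ctl LPS, 0.151 in statin and 0.218 in Ctrl. With every library scaled to an equal total, the median of all tested genes shifted by -0.82 for ctl LPS against Ctrl, -0.36 for statin LPS against statin, 0.34 for statin LPS against ctl LPS, -0.11 for statin against Ctrl and 0.46 for the interaction. Less that shift, the differences whose sign or call changed under this scaling were 0.0154 for Tnfsf10 between statin and Ctrl, -0.11 for Tnf and 0.14 for Tnfrsf1b between statin LPS and ctl LPS, 0.16 for Tnfrsf1a between statin LPS and statin, and -0.76 for the interaction of Tnfrsf1b. The scaling multiplies each library by 1 factor, so these values return nearly those of the deposited scale by construction. They are no check on the calls.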

How the data were processed

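RNA of 8 libraries was sequenced, and the authors deposited a table of normalized counts, read counts divided by a size factor per library (a signal in relative units, not raw counts). The submitters' processing notes name STAR 2.5.3, HTSeq 0.9.1, DESeq2 1.18.1 and mm10 without their roles, the study's methods name Salmon, GENCODE and DESeq2, and whether counting used strand is not given in the sources used here. All values (100%) were whole reads within 0.01 reads once the value of 1 read per library was recovered. The table also held 12 per-sample columns that were not used. Sheets with the authors' fold changes, p-values and gene ontology terms were not used, and 27 rows with a date in place of a gene symbol were left out.

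Values were tested with limma 3.58.1 (R 4.3.3, moderated test with trend, two-sided) on log2(normalized count + 1), in 1 fit of all 4 groups with 4 residual degrees of freedom, over 11630 genes with a mean of at least 10, with Benjamini-Hochberg adjustment over all of them in each comparison. The study names a count model, and since the deposited values are normalized, count tests on recovered reads (edgeR 4.0.16, DESeq2 1.42.0) were alternatives. The edgeR quasi-likelihood test called 6642 genes for statin against Ctrl, 7462 for statin LPS against ctl LPS, 9082 for ctl LPS against Ctrl, 6780 for statin LPS against statin and 6459 for the interaction. Other alternatives changed the scaling, pseudocount, filter, libraries and replicate block. The procedure was tested on simulated data in which a small part of the genes changed, up or down, in 1 group. Such data cannot show how the tests behave when most genes are called and normalized totals differ as here. Fold changes with the added 1 understate changes of low genes.

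The members and lists were chosen with earlier results of these data known. Genes of the wider list were named if called with an absolute log2 change over 1 and no overlap of groups, at most 4 per kind and direction. The receptors of the 4 ligands and Lta and Ltb under LPS were named beside that rule. Gene positions are from GENCODE M21 (GRCm38), and promoter sequences from RefSeq, in which 8 of 9 members matched.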

Additional observations from a re-analysis of the deposited data

Results flagged for a closer look

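The effect of statin with LPS differed from its effect without LPS for all 9 members by the interaction test in limma. Each difference was negative on the log2 scale, where 30.1% of all tested genes had a negative call and 25.6% a positive one. In normalized counts the direction can differ. For Tnfrsf1b the group means lay further apart under LPS (85655 in statin LPS, 77655.5 in ctl LPS) than at rest (8031 in statin, 4369 in Ctrl). On the log2 scale the difference between the effects was -6.02 for Tnfsf10, -3.17 for Traf1, -2.97 for Tnf, -2.35 for Fas, -1.72 for Tnfsf9, -1.52 for Tnfsf13b, -1.49 for Tnfrsf1a, -0.77 for Tnfrsf1b and -0.68 for Traf2. The call for Tnfsf13b was lost when ctl LPS replicate 1 and statin replicate 2 were left out together (-1.15, adjusted p = 0.0931), and that for Tnfrsf1b under 8 of 19 alternatives. Groups of 2 libraries were too small to test for a library apart from its group.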

How the results depend on the processing

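Of 891 values of members under 20 alternatives, 850 kept their direction and their side of the threshold, 23 lost the call, 7 gained one and 11 turned sign. Signs turned for Tnfsf10 in statin against Ctrl with TMM scaling (-0.0111), equal totals (-0.10), quantile normalization (-0.24), edgeR (-0.0597), DESeq2 (-0.0514) and without statin replicate 1 (-0.23) or Ctrl replicate 2 (-0.30), and leaving out 1 library at a time gave -0.30 to 0.32. They also turned for Tnf in statin LPS against ctl LPS with equal totals (0.23) and quantile normalization (0.25), and for Tnfrsf1a in statin LPS against statin with the same settings (-0.20 and -0.0780). Less the shift of all genes, Tnf was -0.11 and Tnfrsf1a 0.16 with equal totals, and Tnf was 0.18 and Tnfrsf1a -0.0106 with quantile normalization. For Tnfsf10 the values less the shift were 0.0154 and -0.19. Equal totals multiply each library by 1 factor, so taking off the shift returns nearly the deposited differences by construction. Those values are therefore no check on the sign. The cause of the turns was not tested. Of 198 counts of called genes, 197 stayed within 1.5 times, and the wider list in statin against Ctrl had 19 calls, against 30, with only the 4 resting libraries, a fit on fewer libraries. That fit called 4477 of all 11630 tested genes, against 6530 in the main fit. For the 30 named genes of the wider list, 1101 of 1112 values kept direction and call and 11 lost the call.

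With equal totals the share of higher genes among calls was 40.4% for statin against Ctrl (54.2% as deposited), 74.9% for statin LPS against ctl LPS (48.9%), 20.9% for ctl LPS against Ctrl (51.4%), 18.9% for statin LPS against statin (50.1%) and 75.8% for the interaction (45.9%). With a replicate block the members called numbered 7 for statin against Ctrl, 7 for statin LPS against ctl LPS, 9 for ctl LPS against Ctrl, 8 for statin LPS against statin and 9 for the interaction, and the wider list 29, 37, 44, 34 and 38. Of all 11630 tested genes, the same fit called 6437, 7419, 8947, 6700 and 6386. The list counts were not tested against the other genes. Deviations of libraries with the same number correlated at -0.0943 to 0.109, so the pairing rests on a number alone. Over all alternatives the members called ranged over 5 to 8, 7 to 9, 9, 7 to 8 and 7 to 9 in that order. Counts of a few reads, as for Tnfsf10 at rest, limit what depth can show.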

Other observations

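The actin gene Actb, named above for its likeness to Tnfsf13b and often used to scale measurements of single genes, was singled out after its values were seen. It had 104148 and 105167 normalized counts in statin LPS, against 623646 and 630989 in ctl LPS (-2.58 ± 0.11 on the log2 scale, SE, limma adjusted p = 4e-07). Gapdh, another such gene, differed by 0.12 ± 0.12 (adjusted p = 0.381). For its own PCR measurements of single genes the study names Hprt or Gapdh as the reference, not Actb. Per count of Actb, Tnf stood at 3.90 and 3.87 in statin LPS, against 0.689 and 0.712 in ctl LPS. Per count of Gapdh, Tnf stood at 7.91 and 8.10 in statin LPS, against 9.32 and 9.53 in ctl LPS. Per count of Hprt, Tnf stood at 62.91 and 62.88 in statin LPS, against 58.77 and 62.48 in ctl LPS. Of the other genes of this kind looked at, Tnf per count was 13.1 and 13.0 in statin LPS, against 15.3 and 15.7 in ctl LPS for Ppia, and 339 and 324 in statin LPS, against 314 and 322 in ctl LPS for Tbp. It was 9.66 and 9.26 in statin LPS, against 3.82 and 3.99 in ctl LPS for B2m, and 8.27 and 8.54 in statin LPS, against 6.23 and 6.30 in ctl LPS for Rplp0. The ratio was thus lower in statin LPS with Gapdh and Ppia and higher with Actb, B2m, Rplp0, Hprt and Tbp. For Hprt and Tbp the gap was small, and the ratios were not tested. Like Actb, 3 of these genes were themselves lower in statin LPS than in ctl LPS. B2m differed by -1.39 ± 0.11 (limma adjusted p = 1.19e-05), Rplp0 by -0.54 ± 0.11 (0.00253) and Hprt by -0.17 ± 0.05 (0.0253). Tbp and Ppia were not called (-0.17 ± 0.08 and 0.13 ± 0.11, limma adjusted p = 0.0883 and 0.323). A higher ratio is therefore not by itself a rise of Tnf.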
